A study of Mus musculus with 8 samples.

Results

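Read counts of the small noncoding RNAs 7SK, the signal recognition particle (SRP) RNA, the RNase MRP RNA Rmrp, the RNase P RNA Rpph1 and the Y RNAs were measured in 8 mouse prostate tumors. The members were the rows of the count tables with the name 7SK, Metazoa_SRP or Y_RNA, and the rows of Rmrp and Rpph1. The tables list Rmrp under the family name RNase_MRP and Rpph1 under the family name RNaseP_nuc, so these 2 genes were found by their Ensembl gene identifiers in GENCODE M21. This gave 463 of the 38115 rows in each table, of which 461 were found by name. There were 334 rows named 7SK, 102 named Metazoa_SRP and 25 named Y_RNA, with 1 row each for Rmrp (ENSMUSG00000088088) and Rpph1 (ENSMUSG00000092837). Counts of rows that share a name were summed, and the sum was taken as a percentage of the total count of the tumor.

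The tumors came from Myc-CaP, a mouse prostate cancer cell line derived from a transgenic tumor in which a prostate-specific promoter drives human MYC. Androgen sensitive (AS) or castrate resistant (CR) Myc-CaP cells were grown in the anterior prostate of male FVB mice, which were either intact or surgically castrated before injection, and the labels do not say which host each tumor had. RNA was taken from 2 primary AS, 2 metastatic AS, 2 primary CR and 2 metastatic CR tumors, and the age of the mice and the site of each metastasis were not given in the sources used here. All tumors descend from 1 cell line, the labels call the metastases matched without naming their primary tumors, and no label says that replicates came from separate mice, so p-values measure the spread between these samples.

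All 5 RNAs are products of RNA polymerase III and act as scaffolds or catalysts in ribonucleoprotein particles. 7SK, bound by Larp7, Mepce and Hexim proteins, holds the transcription elongation kinase P-TEFb (Cdk9 with a cyclin T) in an inactive form. The SRP RNA binds ribosomes that are making secreted or membrane proteins and carries them to the endoplasmic reticulum. Rpph1 is the catalytic RNA of RNase P, which trims the leader from transfer RNA precursors, and Rmrp is its relative in RNase MRP, which cuts the ribosomal RNA precursor. Y RNAs bind the Ro60 protein (Trove2) and the La protein (Ssb), and take part in RNA surveillance and DNA replication.

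Most reads of each name fell on a few rows, and their sequences in the GENCODE M21 transcripts (GRCm38) show how alike those rows are. Of all reads named 7SK, 53.6% fell on Rn7sk (chr9:78175303-78175633, minus strand) and 92.05% on Rn7sk and Gm24447 (chr15:93234363-93234700, plus strand) together. Neither gene overlaps another annotated gene. The first 241 bases of Rn7sk and Gm24447 are identical, and then they part. The stretches below run from base 222 to the end of each transcript, with the bases after the identical start in capitals.
Rn7sk: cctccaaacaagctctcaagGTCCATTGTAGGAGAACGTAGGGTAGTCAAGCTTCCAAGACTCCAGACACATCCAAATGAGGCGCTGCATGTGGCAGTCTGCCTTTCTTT
Gm24447: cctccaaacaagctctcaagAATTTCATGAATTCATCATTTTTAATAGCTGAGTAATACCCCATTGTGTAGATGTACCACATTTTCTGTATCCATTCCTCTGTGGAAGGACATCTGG
Over the capitals, 90 bases in Rn7sk and 97 in Gm24447, identity was 42.9%. Of the 231 windows of 1 read length in Rn7sk, 144 matched another annotated gene at another place with at most 2 mismatches, and so did 143 of the 238 windows in Gm24447. By the methods, reads were kept only where they matched 1 place in the genome, and how reads that match both copies, such as those from within the identical start, were treated in the counting is not given in the sources used here. The third row, Gm22058, lies on chromosome 12 in an interval shared with the protein-coding gene Atl1, and the fourth, Gm26315, in one shared with Celf2.

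Of the reads named Metazoa_SRP, 94.99% fell on ENSMUSG00000092665 and 98.7% on this row and ENSMUSG00000092773 together. These 2 identifiers are not in GENCODE M21, so their position and sequence are not given. The third row, Rn7s6 (chr6:69516339-69516629, plus strand), is the most counted SRP row with a known position. Rn7s6 and Rn7s1 were 85.2% identical. Rn7s1 and Rn7s2 were identical over all 300 bases, each of the 200 windows in Rn7s1 matched another gene, and the identifiers of both were not among the rows listed.

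Of the reads named Y_RNA, 99.98% fell on Rny1 (chr6:47788069-47788180, minus strand) and Rny3 (chr6:47781624-47781725, plus strand), which are neighbours on chromosome 6. They are shown because their counts went different ways, with the bases of each that have no match in the other in capitals.
Rny1: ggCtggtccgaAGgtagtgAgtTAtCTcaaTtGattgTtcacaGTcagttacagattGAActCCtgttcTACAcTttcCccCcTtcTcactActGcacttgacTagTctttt
Rny3: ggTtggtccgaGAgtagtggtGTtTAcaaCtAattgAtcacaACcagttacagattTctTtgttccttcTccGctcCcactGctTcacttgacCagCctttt
The 2 sequences were 72.3% identical, and none of their windows of 1 read length (12 in Rny1, 2 in Rny3) matched another gene. Rmrp (chr4:43492788-43493058, minus strand, inside a long noncoding gene of the same name and overlapping Ccdc107 on the other strand) and Rpph1 (chr14:50807449-50807767, minus strand, overlapping Ccnb1ip1) were each read from 1 row. Their sequences, whole for Rmrp and bases 1 to 300 of 319 for Rpph1, are shown without capitals, as no window of 1 read length in either (171 and 219) matched another gene.
Rmrp: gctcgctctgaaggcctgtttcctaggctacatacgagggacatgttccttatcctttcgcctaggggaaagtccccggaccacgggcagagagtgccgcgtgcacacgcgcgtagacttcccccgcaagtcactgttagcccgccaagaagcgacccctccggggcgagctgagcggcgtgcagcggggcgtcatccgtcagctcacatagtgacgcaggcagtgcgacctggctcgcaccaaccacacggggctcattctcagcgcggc
Rpph1: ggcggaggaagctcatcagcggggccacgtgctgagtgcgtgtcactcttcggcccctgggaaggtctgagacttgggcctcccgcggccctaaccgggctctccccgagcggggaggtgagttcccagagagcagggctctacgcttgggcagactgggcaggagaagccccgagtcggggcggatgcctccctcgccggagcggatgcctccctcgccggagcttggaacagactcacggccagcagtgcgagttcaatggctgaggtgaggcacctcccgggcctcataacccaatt
The other rows held few reads. No read was counted in any tumor for 135 rows of 7SK, 18 of Y_RNA and 3 of Metazoa_SRP, and the fit of single rows kept 43 of the 463 rows after its filter on low counts.

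The total count was 61237285 to 91886163 in the 4 AS tumors and primary CR1, and 20905806 to 40586710 in primary CR2, metastatic CR1 and metastatic CR2. The same 3 CR tumors stood apart in other abundant RNAs. The Lars2 row held 0.0259% to 0.140% of the count in the 5 deeper tumors and 8.53% to 9.54% in the 3 others, and the 5S_rRNA rows held 0.0257% to 0.0775% against 0.557% to 0.733%. The identifiers of the AS libraries and of the CR libraries, primary CR1 included, come from 2 separate blocks of numbers, and the labels do not say whether these were handled apart, so such a difference cannot be told apart from phenotype. Among prostate epithelial markers, Krt8 gave 37.2 to 762.6 CPM (the read count scaled to a common library total), while Epcam (0 to 22 reads), Cdh1 (3 to 38) and Krt18 (2 to 41) were at or near 0. The 5 listed macrophage markers together gave 423.3 to 584.5 CPM in AS and 196.4 to 604.0 in CR tumors, and 4 lung markers at most 0.526 CPM. Primary CR1 thus lay with the AS tumors in total count, Lars2 and 5S_rRNA, and away from the other tumors with its label. In mitochondrial ribosomal RNA it was the lowest of the 8 tumors. Its mt-Rnr1 share was 0.127%, against 1.10% to 2.08% in AS tumors and 2.97% to 5.54% in the other CR tumors. For mt-Rnr2 these values were 2.40%, 10.4% to 12.9% and 7.43% to 18.3%. Whether the label of primary CR1 is right was not tested, and each difference between CR and AS depends on it. Results for phenotype are given with and without primary CR1, which was singled out after its values were seen.

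The SRP RNA took the largest share of the reads among the members in the AS tumors and in primary CR1, and the shares of the members moved in different directions in the other 3 CR tumors. Metazoa_SRP held 7.21% and 10.8% of the total count in primary AS1 and AS2, 8.92% and 10.1% in metastatic AS1 and AS2, and 12.6% in primary CR1. It held 1.48% in primary CR2, 2.03% in metastatic CR1 and 2.41% in metastatic CR2. These last 3 values were 3.84 to 6.23 times below the AS mean of 9.25% ± 1.56 (SD, n = 4), and primary CR1 was the highest of the 8 tumors. In bulk tumors, fewer cells that hold an RNA and less of it per cell cannot be told apart.

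Rmrp followed the same order at a lower level. Its share was 0.501%, 0.648%, 0.583% and 0.635% in primary AS1, primary AS2, metastatic AS1 and metastatic AS2, and 0.863% in primary CR1. It was 0.193%, 0.253% and 0.245% in primary CR2, metastatic CR1 and metastatic CR2. The last 3 were 2.33 to 3.07 times below the AS mean of 0.592% ± 0.0668 (SD, n = 4).

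Rpph1 did likewise, with 0.164% and 0.222% in the primary AS tumors, 0.228% and 0.248% in the metastatic AS tumors and 0.378% in primary CR1. Primary CR2, metastatic CR1 and metastatic CR2 had 0.0781%, 0.0777% and 0.0887%, or 2.43 to 2.77 times below the AS mean of 0.215% ± 0.0361 (SD, n = 4). For Metazoa_SRP, Rmrp and Rpph1 alike, the AS range lay above these 3 CR tumors and below primary CR1.

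The share of 7SK did not split in this way. It was 2.29% and 3.26% in the primary AS tumors, 3.65% and 3.91% in the metastatic AS tumors, 5.45% in primary CR1, 2.47% in primary CR2, 3.09% in metastatic CR1 and 2.72% in metastatic CR2. Apart from primary CR1, the CR tumors lay inside the AS range. In these 3 tumors 7SK held more of the count than Metazoa_SRP, while in the other 5 it held less.

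The Y RNAs went the other way. Their share was 0.0437% and 0.0570% in the primary AS tumors, 0.0724% and 0.0575% in the metastatic AS tumors and 0.0584% in primary CR1, inside the AS range. It was 0.165% in primary CR2, 0.305% in metastatic CR1 and 0.189% in metastatic CR2, 2.86 to 5.29 times the AS mean of 0.0576% ± 0.0118 (SD, n = 4). Together the 5 members took 10.2% to 14.98% of the count in AS tumors, 19.3% in primary CR1 and 4.39% to 5.76% in the other CR tumors. The widest 95% Wilson interval of any of these shares, that of the sum in metastatic CR2, spanned 0.0198 percentage points, so counting error was far below the spread between tumors, although reads without molecular identifiers are not independent molecules.

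**Figure D1:**
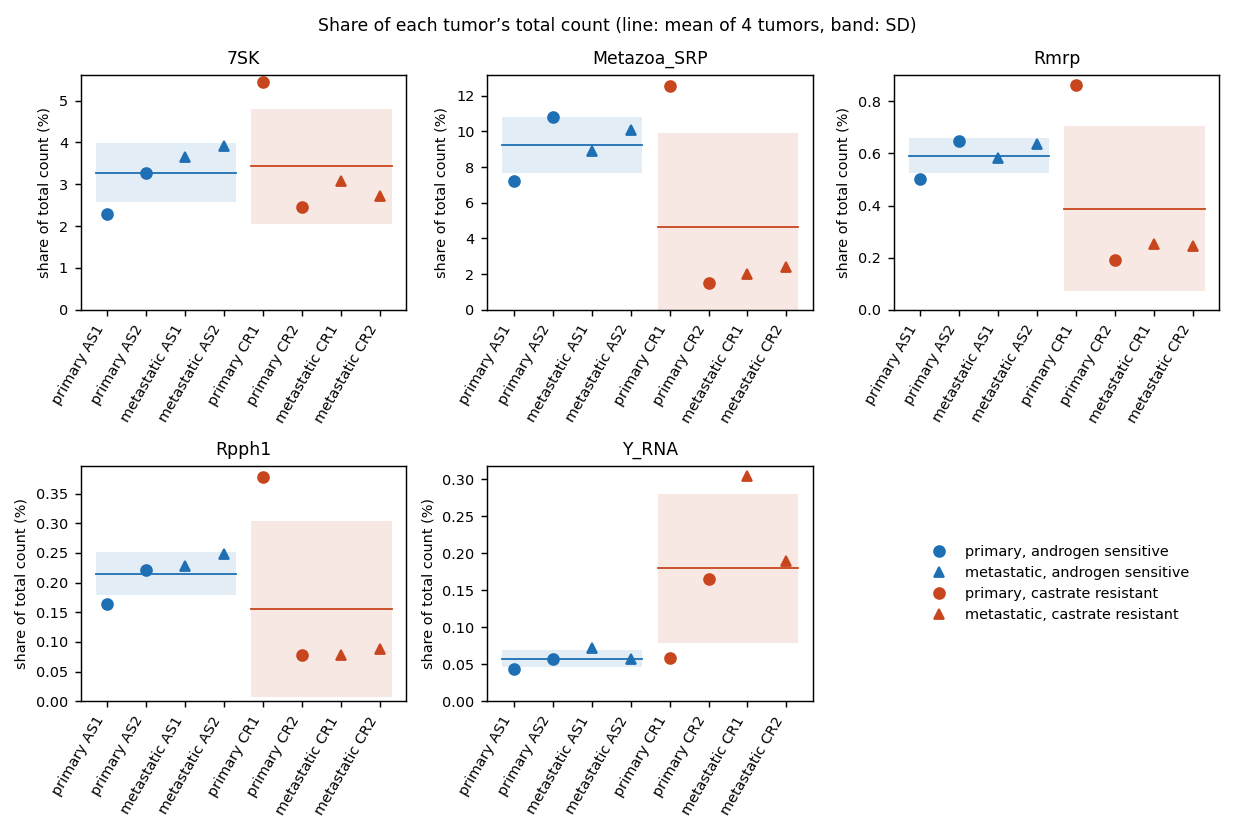
Share of the total count of each tumor (%, vertical axes start at 0) for each member, with AS tumors in blue, CR tumors in red, primary tumors as circles and metastatic tumors as triangles. Lines are means of 4 tumors and bands 1 SD, ended at 0. Primary CR1 (12.6% for Metazoa_SRP) sits above the AS tumors in 4 panels, and the other CR tumors sit below them for Metazoa_SRP, Rmrp and Rpph1 and above them for Y_RNA.

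Levels of different RNAs were compared per length, as CPM per kilobase of the annotated gene, for 7 rows with a known length. The main SRP row, ENSMUSG00000092665, has none and is not ranked. It held a mean of 8.79% of the AS count, against 1.68% for Rn7sk. Of the windows of 1 read length, 62.3% in Rn7sk and 60.1% in Gm24447 matched another gene, against 0% in Rmrp and Rpph1. How such reads were counted is not given, so these levels may not be comparable. Rny1 and Rny3 are little longer than 1 read, with 12 and 2 such windows against 191 in Rn7s6. Their levels per kilobase may therefore not be comparable with those of the longer RNAs. Among the rows compared, Rn7sk had the highest level in AS tumors, 50854 ± 12705 CPM per kilobase (SD, n = 4). Gm24447 followed at 38915 ± 7328, Rmrp at 21832 ± 2465 and Rpph1 at 6748 ± 1133. Below them came Rn7s6 at 3480 ± 452.0, Rny3 at 3106 ± 905.4 and Rny1 at 2317 ± 250.2. The ranges of Rn7sk and Gm24447 overlapped, as did those of Rn7s6 and Rny3 and of Rny3 and Rny1, while Rmrp, Rpph1 and Rn7s6 did not overlap in AS tumors. In CR tumors the level of Rny1 was 13712 ± 8678 CPM per kilobase (SD, n = 4), from 3409 in primary CR1 to 24601 in metastatic CR1, against 1969 to 2543 in AS tumors.

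To ask how the members differed between phenotypes, CR and AS tumors were compared by edgeR's quasi-likelihood test over the whole table, with tumor type as a covariate and Benjamini-Hochberg adjustment over 17066 rows. Y_RNA was the 1 member of 5 called at an adjusted p under 0.05, with a log2 fold change of 1.75 (SE 0.44, adjusted p = 0.0351). Of all rows tested 12.3% were called, 6.23% higher and 6.05% lower in CR tumors. The log2 fold change was -1.18 for Metazoa_SRP (SE 0.60, adjusted p = 0.229), -0.63 for Rmrp (SE 0.40, adjusted p = 0.330), -0.57 for Rpph1 (SE 0.47, adjusted p = 0.452) and 0.18 for 7SK (SE 0.33, adjusted p = 0.764). The call of Y_RNA was lost in 7 of the 8 fits that each left out 1 tumor, with adjusted p between 0.0534 and 0.129 by the same test. It held in the fit without primary CR1.

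Without primary CR1 the same edgeR test called 4 of the 5 members, beside 23.8% of the 17353 rows tested. Metazoa_SRP fell by 2.10 on the log2 scale (SE 0.29, adjusted p = 0.00260), Rmrp by 1.19 (SE 0.21, adjusted p = 0.00710) and Rpph1 by 1.23 (SE 0.20, adjusted p = 0.00470). Y_RNA rose by 2.08 (SE 0.29, adjusted p = 0.00262), and the log2 fold change of 7SK was -0.08 (SE 0.27, adjusted p = 0.865). The share of rows called in the same direction was 10.5% higher and 13.3% lower.

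Shares were also compared by exact two-sided permutation tests over the 70 divisions of 8 tumors, 5 members and 2 comparisons giving 10 tests. The difference CR minus AS was -4.62 percentage points for Metazoa_SRP (exact permutation p = 0.143), -0.203 for Rmrp (exact p = 0.200), -0.0595 for Rpph1 (exact p = 0.486), 0.154 for 7SK (exact p = 0.886) and 0.122 for Y_RNA (exact p = 0.0571). The groups overlapped for each member, and no p fell under 0.05 before any adjustment. Without primary CR1, Metazoa_SRP, Rmrp, Rpph1 and Y_RNA no longer overlapped between phenotypes, and each had p = 0.0286 (exact permutation test), the smallest that 3 tumors against 4 allow. These p-values are unadjusted, and each was 0.0714 after Benjamini-Hochberg adjustment over the 10 tests, so none passed 0.05. Primary CR1 was singled out after its values were seen, so the lack of overlap follows in part from this choice. How many of all rows failed to overlap in the same split was not counted.

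**Figure D2:**
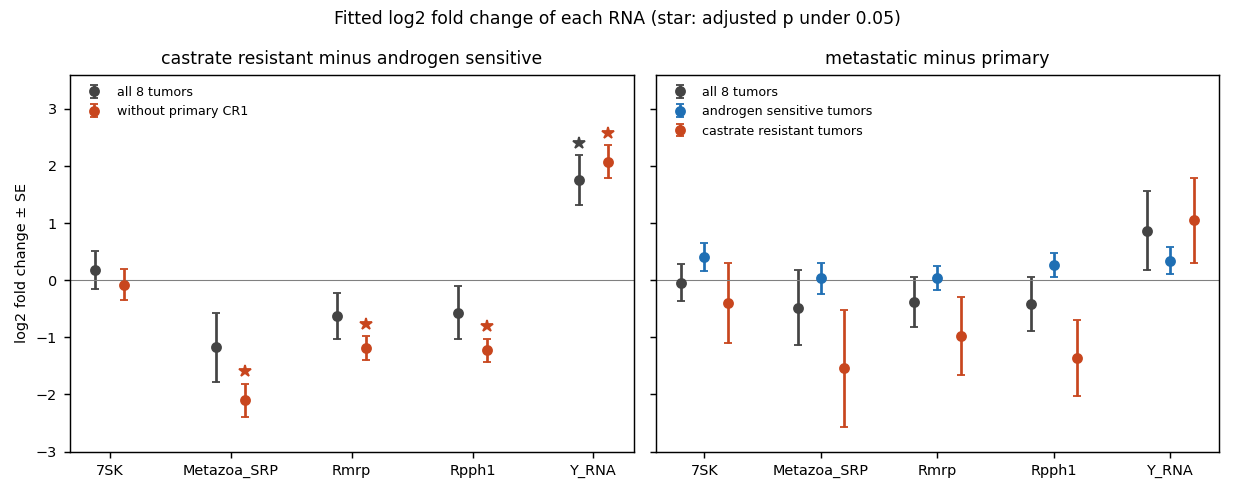
Log2 fold change with its standard error for each member from edgeR's fit over the whole table, CR minus AS on the left (all 8 tumors, and without primary CR1) and metastatic minus primary on the right (all tumors, AS only, CR only). Stars mark an adjusted p under 0.05, which Y_RNA reached with all 8 tumors (1.75) and 4 members reached without primary CR1.

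Within a name, copies differed in their values across tumors, and these differences between copies are given as ratios and were not tested. In the fit that kept rows apart, Rny1 was the 1 row of 43 tested that was called in the comparison of CR with AS, with a log2 fold change of 2.66 (SE 0.52, adjusted p = 0.0178, edgeR), beside 12.2% of all 17104 rows tested with 6.16% called higher and 6.01% lower. Rny1 held 0.0221% and 0.0274% of the count in the primary AS tumors, 0.0285% and 0.0259% in the metastatic AS tumors, 0.0382% in primary CR1, 0.142% in primary CR2, 0.276% in metastatic CR1 and 0.158% in metastatic CR2. Every CR tumor was above every AS tumor, primary CR1 least so.

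Rny3, its neighbour, held 0.0216%, 0.0296%, 0.0439% and 0.0316% in the AS tumors in the same order, and 0.0203%, 0.0228%, 0.0294% and 0.0306% in the CR tumors. The phenotypes overlapped, and the log2 fold change was -0.15 (SE 0.22, adjusted p = 0.687, edgeR). The ratio of Rny1 to Rny3 counts was therefore 0.648 to 1.02 in AS tumors, 1.88 in primary CR1, 6.23 in primary CR2, 9.38 in metastatic CR1 and 5.17 in metastatic CR2.

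Among the 7SK rows, Rn7sk held 1.10% to 2.01% of the count in AS tumors and 1.76% to 2.61% in CR tumors. Gm24447 held 0.991% to 1.59% in AS tumors, 2.36% in primary CR1 and 0.592%, 0.744% and 0.625% in primary CR2, metastatic CR1 and metastatic CR2. The ratio of Gm24447 to Rn7sk counts was 0.698 to 0.905 in AS tumors and 0.904 in primary CR1, against 0.337, 0.336 and 0.317 in the other CR tumors. Gm22058 gave the same split, 0.110 to 0.138 of Rn7sk in the first 5 tumors and 0.0343 to 0.0398 in the last 3. The share of 7SK thus summed Rn7sk, whose CR tumors lay within or above its AS range, and the copies Gm24447 and Gm22058, which lay below their AS range in 3 CR tumors. Gm26035, a copy with few reads, lay inside its AS range in the same 3 tumors.

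Tested row by row over all 8 tumors, the log2 fold change was 0.50 for Rn7sk (SE 0.28, adjusted p = 0.279, edgeR), -0.29 for Gm24447 (SE 0.43, adjusted p = 0.701) and -0.59 for Gm22058 (SE 0.51, adjusted p = 0.475). Without primary CR1, 9 of 45 member rows tested were called, 1 higher and 8 lower, beside 23.8% of 17393 rows in all, 10.4% higher and 13.3% lower. Gm24447 then fell by 0.83 (SE 0.25, adjusted p = 0.0475, edgeR) and Gm22058 by 1.29 (SE 0.23, adjusted p = 0.00733), while Rn7sk stayed at 0.40 (SE 0.27, adjusted p = 0.308). Rny1 rose by 3.05 (SE 0.30, adjusted p = 0.000730, edgeR) and Rny3 was at -0.06 (SE 0.21, adjusted p = 0.858).

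Among the SRP rows, the main row ENSMUSG00000092665 held 6.81% to 10.2% of the count in AS tumors, 12.02% in primary CR1 and 1.33%, 1.81% and 2.16% in primary CR2, metastatic CR1 and metastatic CR2. ENSMUSG00000092773 held 0.294% to 0.424% in AS tumors, 0.414% in primary CR1 and 0.102% to 0.158% in the others. Rn7s6 ranged from 0.0900% to 0.118% in AS tumors and was 0.115% in primary CR1, 0.0510% in primary CR2, 0.0744% in metastatic CR1 and 0.0869% in metastatic CR2. Rn7s6 was thus nearer to its AS level in these tumors than the main row, and its ratio to the main row was 0.00959 to 0.0132 in the first 5 tumors and 0.0384 to 0.0410 in the last 3. Without primary CR1 the main row fell by 2.19 (SE 0.29, adjusted p = 0.00219, edgeR) and ENSMUSG00000092773 by 1.22 (SE 0.22, adjusted p = 0.00701), and the log2 fold change of Rn7s6 was -0.38 (SE 0.19, adjusted p = 0.186). With all 8 tumors none of the 28 SRP rows tested was called.

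Rmrp and Rpph1 were each read from 1 row, and the other rows with their family names were not summed with them. The 20 rows named RNaseP_nuc together held a mean of 0.240% of the AS count, against 0.215% for Rpph1. The 2 rows named RNase_MRP held 0.592%, the same as Rmrp. The ratio of Rmrp to Rpph1 counts was 3.06 and 2.92 in primary AS tumors, 2.56 in each metastatic AS tumor, 2.28 and 2.47 in primary CR tumors and 3.26 and 2.76 in metastatic CR tumors. It did not separate the phenotypes.

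**Figure D3:**
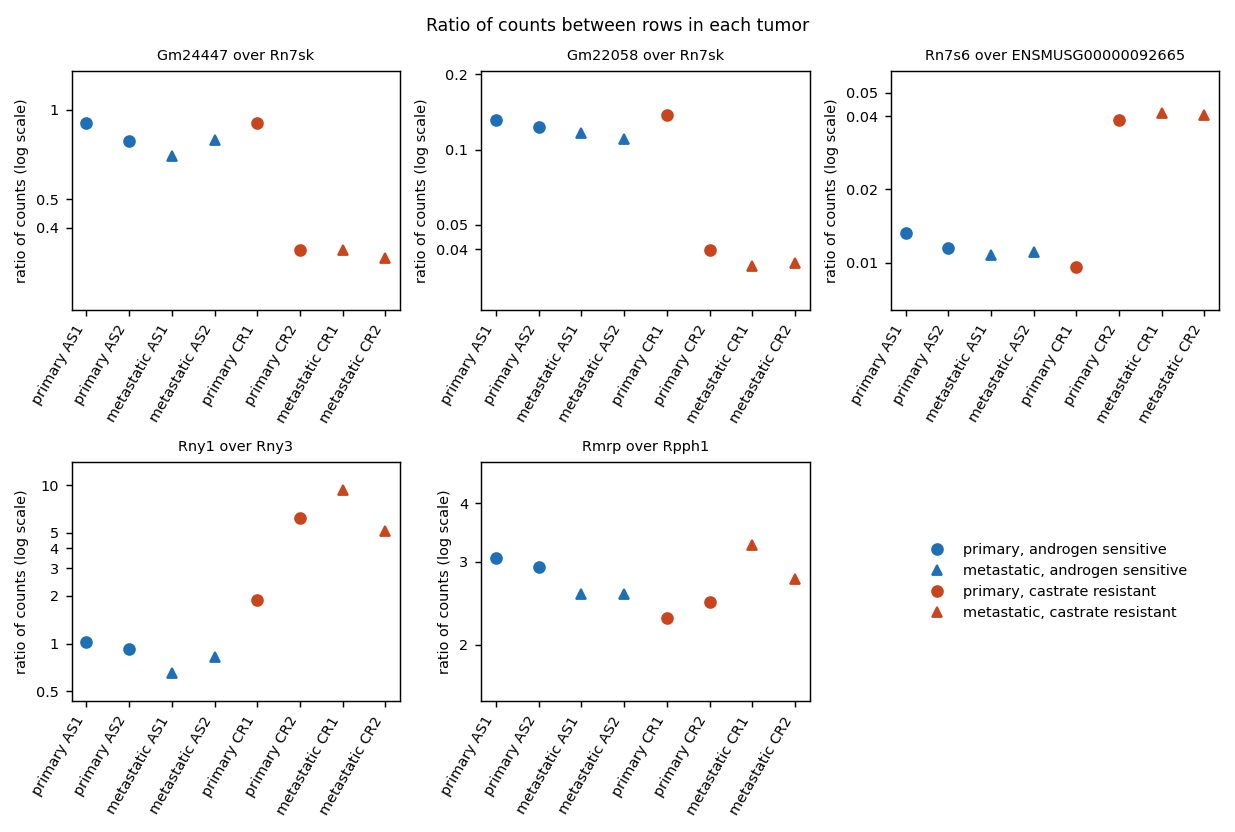
Ratio of read counts between pairs of rows in each tumor, on log axes, with colours for phenotype and symbols for tumor type. The copies of 7SK and of the SRP RNA change proportion in primary CR2, metastatic CR1 and metastatic CR2 (Gm24447 over Rn7sk 0.317 to 0.337), Rny1 over Rny3 is highest there (5.17 to 9.38), and Rmrp over Rpph1 stays between 2.28 and 3.26.

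The comparison of metastatic with primary tumors, 4 of each, called no row in the table. The paper made this comparison with fewer primary tumors and with DESeq, and reported differentially expressed genes. The 2 comparisons thus differ in samples and test. By edgeR with tumor type alone, 0 of 17066 rows (0%) passed an adjusted p of 0.05, 461 rows had an unadjusted p under 0.05, and DESeq2 gave 0 and 611. The log2 fold change was -0.04 for 7SK (SE 0.32), -0.48 for Metazoa_SRP (SE 0.66), -0.38 for Rmrp (SE 0.43), -0.42 for Rpph1 (SE 0.47) and 0.87 for Y_RNA (SE 0.69), with adjusted p of 0.996 or 0.997 for each. Mean shares were 8.01% ± 4.89 in primary and 5.86% ± 4.23 in metastatic tumors for Metazoa_SRP, and 0.0810% ± 0.0564 and 0.156% ± 0.115 for Y_RNA (SD, n = 4 each). The exact permutation p for the share was 1 for 7SK, 0.543 for Metazoa_SRP, 0.543 for Rmrp, 0.629 for Rpph1 and 0.200 for Y_RNA. With tumors permuted within phenotype, Y_RNA had an exact permutation p of 0.0556, the smallest that these 36 divisions allow, and the other members 0.722 to 1.

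Within phenotypes, a split chosen after the data were seen, both metastatic AS tumors had a higher share of 7SK, Rpph1 and Y_RNA than both primary AS tumors. The log2 fold changes there were 0.41 for 7SK, 0.04 for Metazoa_SRP, 0.05 for Rmrp, 0.26 for Rpph1 and 0.34 for Y_RNA, none called (adjusted p from 0.738 to 0.981, edgeR). In CR tumors they were -0.40, -1.55, -0.98, -1.37 and 1.05 in the same order, with adjusted p = 0.999 for each, and the 2 primary CR tumors lay on either side of the metastatic ones for 7SK, Metazoa_SRP and Rmrp. The share of Y_RNA was higher in both metastatic CR tumors than in both primary CR tumors, as it was in AS tumors. The interaction of tumor type and phenotype was called for 0 of 18837 rows (0%), with 515 at an unadjusted p under 0.05 by edgeR and 2 called by DESeq2. Its log2 value was -1.68 for Rpph1 (SE 0.76, unadjusted p = 0.0570, adjusted p = 0.964, edgeR), the lowest p among the members.

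The proteins that work with these RNAs were read from lists drawn up for this purpose. Their CPM, unlike that above, was scaled to library totals multiplied by edgeR's TMM normalization factors. These factors ran from 0.811 in primary CR2 to 1.14 in metastatic CR2. Of 7 genes of the 7SK particle and P-TEFb tested for CR against AS, 1 was higher and 1 lower, where 12.3% of all rows were called, 6.23% higher and 6.05% lower. The counts of 1 call in 10, 11 and 18 genes that follow lie near or under that share. Hexim1, which with 7SK blocks the kinase, fell by 0.96 (SE 0.17, adjusted p = 0.0140, edgeR), from 40.5 to 45.2 CPM in AS tumors to 16.8 to 29.0 in CR tumors. Larp7, which binds and stabilises 7SK, rose by 0.68 (SE 0.16, adjusted p = 0.0295), from 12.6 to 18.2 CPM in AS to 19.2 to 28.4 in CR tumors. Neither gene overlapped between phenotypes, but both were named because they were called. How many of all rows failed to overlap between these phenotypes was not counted. The median log2 fold change of the list was -0.04, against -0.01 over all rows tested.

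Of 10 SRP proteins and receptor subunits, 1 was lower and 0 higher. Srpr, the receptor subunit that docks the particle at the endoplasmic reticulum, fell by 0.58 (SE 0.16, adjusted p = 0.0449, edgeR), from 109.6 to 154.6 CPM in AS to 75.2 to 122.8 CPM in CR tumors, which overlapped. The list median was -0.17. Without primary CR1, Srp54a (log2 fold change 0.94) and Srp72 (0.59) of this list were called higher, and Srp9 (-0.61), Srprb (-0.57) and Srpr (-0.51) lower, in a fit that called 23.8% of all rows, 10.5% higher and 13.3% lower. None of 9 protein subunits of RNase P and MRP was called, and 3 had an unadjusted p under 0.05. The lowest p values were those of Rpp40 (log2 fold change 0.64, SE 0.19, adjusted p = 0.0601, edgeR) and Rpp30 (0.52, SE 0.19, adjusted p = 0.104), and the median of the list was 0.15. Without primary CR1 the subunit Pop7 was called, at -1.01 (adjusted p = 0.0101).

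Of the 2 Y RNA partners, Ssb, the La protein that binds the end of new polymerase III transcripts, rose by 0.65 (SE 0.15, adjusted p = 0.0294, edgeR), from 114.8 to 181.1 CPM in AS to 195.2 to 263.4 CPM in CR tumors. Trove2, the Ro60 protein and the other gene of this list, had a log2 fold change of -0.23 (adjusted p = 0.383). Of 11 RNA polymerase III subunits, Polr3k fell by 0.90 (SE 0.20, adjusted p = 0.0240, edgeR), from 25.2 to 34.6 CPM in AS to 11.9 to 24.2 CPM in CR tumors, and none rose. The list median was 0.25. Of 18 polymerase III transcription factors, Tbp, the TATA-binding protein, rose by 0.44 (SE 0.12, adjusted p = 0.0496), from 31.1 to 33.5 CPM in AS to 40.6 to 49.0 CPM in CR tumors, and none fell. The list median was 0.06. Without primary CR1 the calls of Hexim1, Larp7, Srpr, Ssb, Polr3k and Tbp were all kept in direction and significance. Of the fits that each left out 1 tumor, this fit called the most rows, 4129, and the fewest called was 482. These 6 calls were not looked up in the other fits of that kind, so their stability is not known. In the fit without primary CR1, 1 of 7 genes of the 7SK particle and P-TEFb was called higher and 2 lower. Of 11 polymerase III subunits 1 was higher and 1 lower, and of 18 factors 3 were higher and 2 lower. Of all rows 10.5% were called higher and 13.3% lower. In the comparison of metastatic with primary tumors none of the genes in these 6 lists was called. The lowest unadjusted p there was that of Pop5 (log2 fold change -0.44, unadjusted p = 0.0318, adjusted p = 0.996, edgeR).

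Annotated length moved with the difference between phenotypes among short RNA genes. Rows of snoRNAs, snRNAs, ribosomal, miscellaneous and catalytic RNAs with a mean of at least 5 CPM over the 8 tumors were put in 3 classes of length, chosen after the values were seen. In the fit of single rows 6.16% of all 17104 rows were called higher and 6.01% lower. Of 153 rows under 150 bases, 98 were called higher and 0 lower in CR tumors, with a median log2 fold change of 2.39. Of 51 rows from 150 to under 250 bases 26 were called higher and 0 lower, with a median of 1.59. Of 19 rows from 250 to under 500 bases 1 was called higher and 0 lower, with a median of -0.13, and 10 of these 19 rows were members. The 2 most counted SRP rows have no known length and were left out. Their log2 fold changes were -1.22 for ENSMUSG00000092665 and -0.75 for ENSMUSG00000092773.

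Rny1, at 112 bases, lay near the median of its class, and Rny3, at 102 bases, far below it. Without primary CR1 the medians were 2.74, 1.89 and -0.54, with 115, 31 and 1 rows called higher and 2, 2 and 7 lower. Of all 17393 rows in that fit 10.4% were called higher and 13.3% lower. The 7 lower rows of the longest class included the members Gm24447, Gm22058, Gm26461, Rmrp and Rpph1. That class is therefore not an outside comparison for the members. A row that is high in either phenotype passes the filter more easily than a row low in both, so these counts describe the rows kept. Whether length has a part in the results for the members was not tested.

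**Figure D4:**
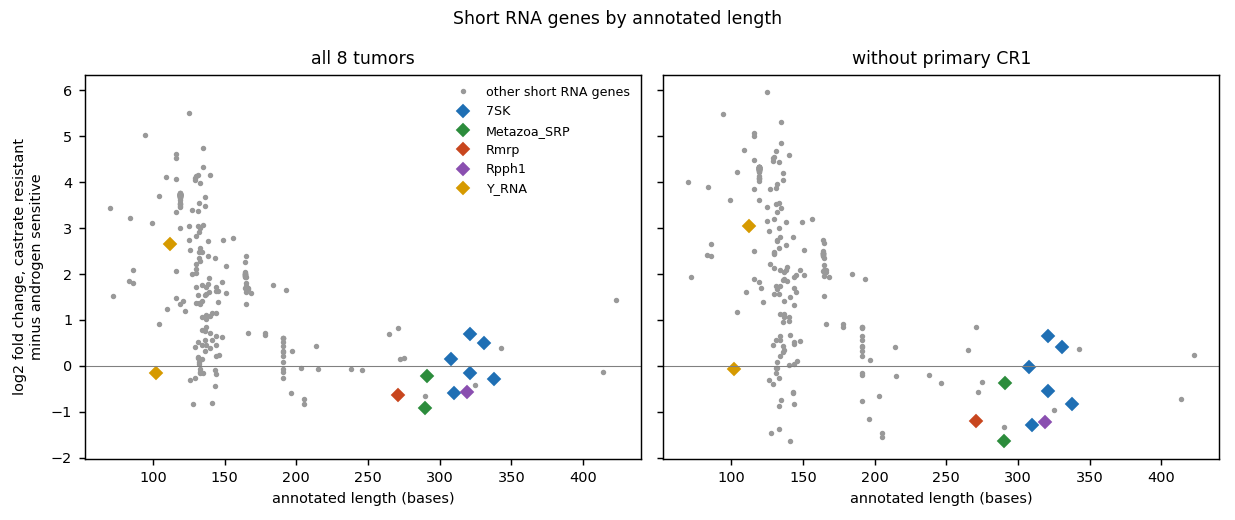
Log2 fold change, CR minus AS, from the fit of single rows against annotated length in bases, for short RNA genes with a mean of at least 5 CPM, with all 8 tumors and without primary CR1. Grey points are other short RNAs and diamonds are members. Members shown of 250 bases or more lie between -0.91 and 0.69 on the left. Rny1 (2.66) lies among the RNAs under 150 bases while Rny3 (-0.15) does not. The main SRP row, ENSMUSG00000092665 (-1.22), has no known length and is not shown.

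Across the 8 tumors, log2 CPM of the members fell into 1 group that varied together and 2 that did not. The CPM here was scaled with the same TMM factors as that of the protein partners. Pearson correlations, given as descriptions over tumors that share depth and the split above, were 0.98 between Metazoa_SRP and Rmrp, 0.95 between Metazoa_SRP and Rpph1, and 0.98 between Rmrp and Rpph1. Y_RNA ran against them (-0.89 with Metazoa_SRP, -0.82 with Rmrp and -0.82 with Rpph1), and 7SK was loosely related to each (0.41 to 0.61, and -0.05 with Y_RNA). Among the 17066 rows tested, those most like 7SK were Zfp13 (0.990), Sdcbp2 (0.989) and Rpl36a (0.971). For Metazoa_SRP they were ENSMUSG00000097070 (0.996), 4930526A20Rik (0.994) and Gm12166 (0.993), and for Rmrp they were Rps14 (0.992), 6330562C20Rik (0.992) and Fis1 (0.992). For Rpph1 they were another RNaseP_nuc row, ENSMUSG00000088025 (0.995), Gm9887 (0.993) and Scarna10 (0.990), and for Y_RNA they were Gm10052 (0.986), 1810021B22Rik (0.984) and Rps24-ps2 (0.982).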

How the data were processed

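Total RNA of 8 Myc-CaP tumors was depleted of ribosomal RNA and made into stranded libraries by the authors (TruSeq Stranded Total RNA, paired reads). According to the methods, the authors mapped reads to mm10 with Bowtie, kept those at 1 place in the genome with at most 2 mismatches, and counted reads per gene. The processing notes of the submitters list GRCm38, CASAVA 1.8.2 and TopHat2 2.0. The deposited values are whole-number counts per gene without normalization, 1 table for each tumor, with totals of 20905806 to 91886163. How counting used strand, and with which annotation, is not given in the sources used here, so reads of overlapping genes, antisense genes and near-identical copies may have been split or lost.

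Groups came from the labels, and replicates were numbered in order within a group. Rows of a member name were summed. GENCODE M21 gave positions and lengths for 380 of the 463 member rows. Differences were tested with edgeR 4.0.16 (filterByExpr, TMM, glmQLFTest, Benjamini-Hochberg adjustment over all rows), in R 4.3.3, with DESeq2 1.42.0 as an alternative. The standard error of a fold change was taken as its size divided by the square root of the F statistic. Shares were tested by exact permutation and given 95% Wilson intervals. Windows of 1 read length were searched with BLAST+ 2.17.0 in the annotated transcripts, then counted with at most 2 mismatches. On simulated data edgeR recovered 92% of 8-fold changes for CR against AS and 84% for metastatic against primary, over 17066 rows each. The changes of the members over all 8 tumors were smaller than 8-fold, so these figures do not give the power to call them. The simulated tumors of a group shared the same mean, with no tumor set apart as primary CR1 was.

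The members and all lists were chosen with earlier results of these data known. Named were the members, the 3 most counted rows of each name with the separately named copies, in each partner list the genes past the threshold or the 2 with the lowest p, and the 3 genes most like each member. Alternatives were other normalization and tests, no filter, rows kept apart, rows overlapping no gene, other covariates, other denominators and each tumor left out. Some markers and 1 sequence are not reported here.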

Additional observations from a re-analysis of the deposited data

Results flagged for a closer look

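The 7 values below, those of primary CR1 among the 4 CR tumors, lay farther from the other 3 than a Dixon test at the 95% level allows. These were its shares of Metazoa_SRP (12.6%), Rmrp (0.863%) and Rpph1 (0.378%), its count ratios Gm24447 to Rn7sk (0.904), Gm22058 to Rn7sk (0.138) and Metazoa_SRP to 7SK (2.30), and its ratio of Rn7s6 to ENSMUSG00000092665 (0.00959). By the same test primary CR2 stood apart among the 4 primary tumors in its share of Y_RNA (0.165%), its ratio of Gm22058 to Rn7sk (0.0398) and its ratio of Rn7s6 to ENSMUSG00000092665 (0.0384). Chance marks about 1 in 20 groups, and 44 groups were examined.

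For 2 ratios the metastatic tumors moved one way in AS and the other way in CR. Rmrp to Rpph1 was lower in both metastatic than both primary AS tumors and higher in both metastatic than both primary CR tumors, with a difference of 1.07 between these 2 mean differences (0.972 without primary CR1). For Rn7s6 to ENSMUSG00000092665 this difference was 0.0181, and it was 0.00371 without primary CR1, on which it mostly rests. Neither difference was tested.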

How the results depend on the processing

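For CR against AS, edgeR called 2095 rows, DESeq2 3543, primary tumors alone 4 and metastatic tumors alone 977 (the splits by tumor type and by phenotype were chosen after seeing the data). Leaving out 1 tumor gave 482 (without metastatic AS1) to 4129 (without primary CR1), a move of over 1.5 times for each of the 8 tumors: 881 and 700 without primary AS1 and AS2, 519 without metastatic AS2, 1052 without primary CR2, and 743 and 1115 without metastatic CR1 and CR2. For metastatic against primary the count was 0 under every alternative run. The interaction was called for 2 rows by DESeq2, for 215 without the filter, and for 0 to 82 with 1 tumor left out (82 without primary CR2). Of 210 fold changes of members under alternatives, 181 kept direction and side of the threshold, 15 turned, 5 became called (Metazoa_SRP, Rmrp and Rpph1 without primary CR1, Metazoa_SRP without the low-count filter with an adjusted p of 0.00013 by edgeR, and Rpph1 in metastatic tumors alone with 0.0468) and 9, all of Y_RNA for CR against AS, lost their call. The log2 fold change of 7SK for CR against AS turned to -0.02 without primary AS1, -0.076 without primary CR1 and -0.22 in metastatic tumors, with a range of -0.076 to 0.37 over tumors left out. Rpph1 turned to 0.25 in primary tumors. Over rows overlapping no other gene, which hold 0.00823% of its counts since its main rows have no known position, Metazoa_SRP gave 0.058, and 0.15 for metastatic against primary, while Rmrp and Rpph1 could not be computed. For metastatic against primary, 7SK turned to 0.41 in AS tumors, 0.22 without primary CR1 and 0.08 without metastatic CR2 (range over tumors left out -0.20 to 0.22), and in AS tumors Metazoa_SRP was 0.036, Rmrp 0.045 and Rpph1 0.26. The interaction ranged over tumors left out from -2.44 to 0.26 for Metazoa_SRP, -1.72 to 0.069 for Rmrp and -0.056 to 1.91 for Y_RNA, turning without primary CR1 for Metazoa_SRP and Rmrp and without metastatic CR1 for Y_RNA. Of 130 share tests, 118 were kept, 8 turned and 4 passed 0.05 before adjustment, none of them after it. Differences in share for CR minus AS, with 1 tumor left out, ran from -0.520 to 0.475 percentage points for 7SK (-0.175 without primary AS1), -7.27 to -3.58 for Metazoa_SRP, -0.361 to -0.138 for Rmrp, -0.134 to -0.0335 for Rpph1 and 0.0799 to 0.162 for Y_RNA, and p reached 0.0286 by exact permutation for the last 4 without primary CR1. For metastatic minus primary, 7SK was 0.233 points with mitochondrial ribosomal RNA, Lars2 and Rn45s left out of the total, 0.064 on the log2 scale, and -0.384 to 0.670 over tumors left out, and Rpph1 -0.0941 to 0.00602. The cause of these changes was not tested.

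No paired analysis was possible because the replicate numbers only name the tumors and the labels do not say which metastasis matches which primary tumor. With 2 tumors in each group the smallest p of a permutation of shares within the levels of the other factor is 0.0556, so those tests could not pass 0.05. Counting depth limits none of the shares, and rows of few reads were not tested.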
